A study of Mus musculus with 51 samples.

Results

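Neuron regions of the cochlea taken after noise were set against neuron regions taken after a mock exposure, across all genes listed. The members were the regions titled as neurons in either treatment. Of the 51 regions in the series 29 carried that title, and 28 were used, 12 after noise and 16 after mock. Noise neuron replicate 6 was left out because all its values were equal. Both groups came from male CBA/CaJ mice 16 weeks old, and the labels name no engineered allele and no drug for either. The noise was broadband at 100 dB SPL for 2 h, delivered to awake animals in small wire cages, and the controls went through a mock session without noise. Titles and treatment entries placed collection 4 h after the exposure, whereas the design text placed it directly after, so the time is known only to lie in that span. Each treatment had 5 animals, and no label tied a region to its animal. Some regions therefore came from the same animal, and every p-value over regions in this text is too small.

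Spiral ganglion neurons carry sound information from the hair cells of the organ of Corti to the brainstem. Most are large bipolar cells with myelinated axons, rich in neurofilaments, fast potassium channels and the neuronal sodium pump, and they release glutamate. Their cell bodies are wrapped by satellite glia and their axons by Schwann cells, so a captured neuron region holds both. Loud sound is known to damage the synapses between hair cells and these neurons, and heat-shock proteins are chaperones that stressed cells make in larger amounts under the control of the factor HSF1. The series belongs to work on that pathway in noise-induced hearing loss.

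GeoMx counts barcoded probes released by light from selected areas of a section. Each value is a probe signal scaled so that the upper quartile of every region is 3.12, and dividing by the lowest value of a region gave whole reads. Totals ran from 10147 to 58022 reads in mock regions (median 23494) and from 12128 to 88156 in noise regions (median 26710). A median of 31.3% of genes in mock regions and 19.2% in noise regions stood at 1 read, which was the lowest count that occurred. Area names began with a word for the treatment and no area held both, so captured area and treatment cannot be told apart. In bulk regions such as these, fewer cells of a type and less RNA per cell cannot be told apart either.

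Levels of neuron markers were described in both groups. These levels do not check the region label, since they come from neuron regions alone. Differences from supporting-cell regions under mock exposure are given for single genes below. Of 17 neuron markers 13 were listed and tested. Their mean log2(value + 1) ranged from 3.73 to 4.94 over mock regions (median 4.30) and from 3.27 to 4.37 over noise regions (median 4.04). Noise replicates 10, 1 and 2 lay below every mock region, and mock replicate 4 was the lowest of its group. The mean of the glia list ranged from 1.84 to 2.67 in mock regions and from 1.55 to 2.28 in noise regions. Among markers of other cell types few were listed and tested: 1 of 15 for bone and connective tissue, 3 of 12 for lateral wall fibrocytes, 1 of 12 for organ of Corti supporting cells, 2 of 11 for hair cells, 2 of 10 for blood, 0 of 11 for macrophages and 2 of 12 for endothelium and pericytes. Apart from the bone list, where the tested member was Spp1, none of these lists had a called gene.

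After noise, neuron regions held less signal for single genes of the axonal skeleton (Nefh, Map1a, Map1b), of ion pumping (Atp1b1), of calcium handling (Atp2a2, Calm2), of glycolysis (Aldoa, Pkm) and of glutamate loading (Slc17a7). They held more for 14 genes with mock medians of 1 to 5 reads, among them Elof1. Of 4686 genes tested 44 (0.939%) differed, 14 (0.299%) higher and 30 (0.64%) lower after noise (limma, adjusted p below 0.05). The test used log2(value + 1), which understates changes of low genes, and fold changes in this text are on that scale. Without adjustment, 706 genes (15.1%) had a p below 0.05. No gene had groups that did not overlap. The median log2 fold change over all genes was 0.01, and 48.1% of genes lay below 0.

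The 30 falls and the 14 rises rested on different numbers of reads. Genes that fell had a median of 17.8 reads per mock region against 8.50 per noise region. Genes that rose had a median of 2 reads per mock region against 5.75 per noise region. The falls ranged from -0.95 to -0.44 on the log2 scale (median -0.76) and the rises from 0.66 to 1.29 (median 0.74). The label of the regions gave each gene a further value, the difference between neuron and supporting-cell regions under mock exposure, which shares the mock neuron regions with the noise comparison. On the log2 scale it was 1.81 for Atp1b1, 1.77 for Nefh and 1.11 for Ghitm, which fell after noise, -0.99 for Gpm6b, which fell too, and -0.02 for Elof1 and -0.61 for Pradc1, which rose. The count depended on single regions: it was 29 without noise replicate 1, 69 without noise replicate 13 and 92 without mock replicate 4. Of the falls 20, and of the rises 4, were called whichever region was left out, and Cox8a was called least often among the falls, in 10 of 28 such fits.

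**Figure D1:**
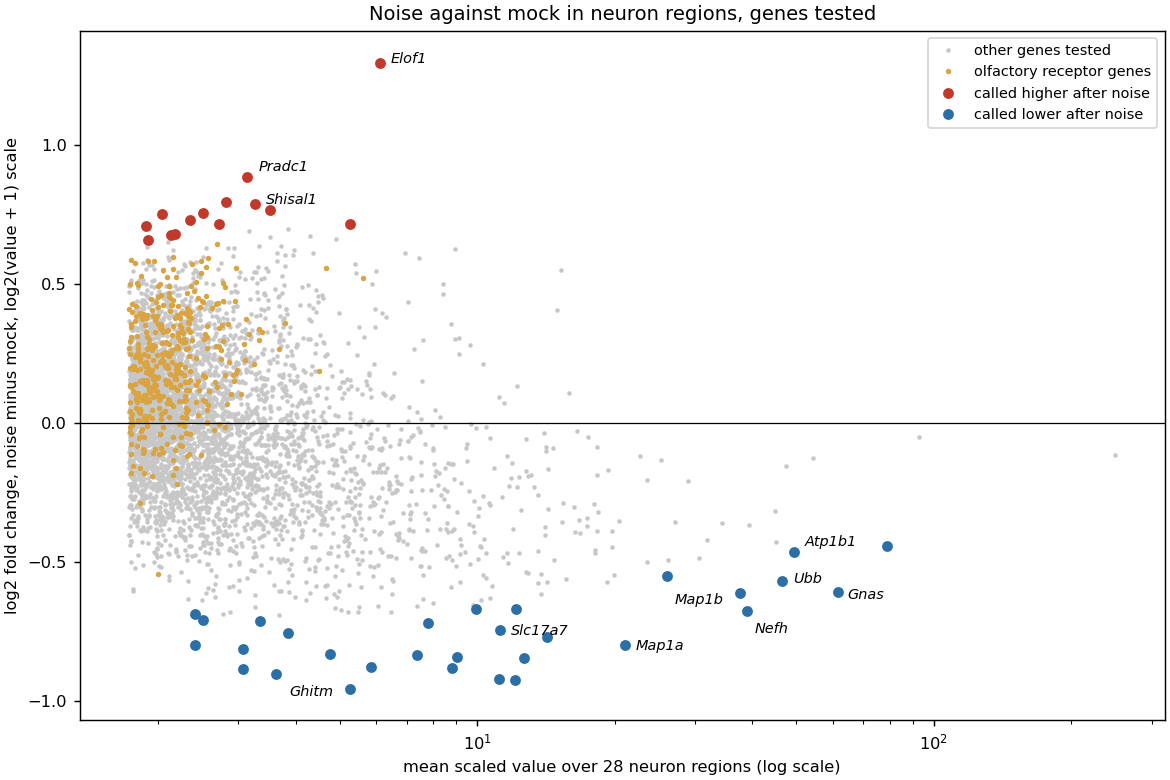
Log2 fold change (noise minus mock) of each gene tested against its mean scaled value over the 28 neuron regions, on a log axis. Red points are the 14 genes called higher, blue points the 30 called lower, and yellow points olfactory receptor genes that were not called. The rises lie at low values, while the falls extend to genes of high signal such as Gnas.

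The cytoskeleton of the axon was the group with the lowest median among the functional lists. Of 21 tested genes 19 lay below 0 and 2 above. The median was -0.36, against 0.01 over all genes, and 3 genes fell, none rose. Over all genes tested 48.1% lay below 0 and 0.64% were called lower. Both shares are the ones to set beside the later lists too. Nefh, the heavy neurofilament subunit that widens large axons, ranged from 12.5 to 39.8 after noise (median 29.0) and from 28.1 to 66.0 after mock (median 44.7). In reads these were medians of 44 and 66. Each of the 12 noise regions lay below the mock median and 6 lay below the lowest mock region. This was a log2 fold change of -0.68 (limma adjusted p 0.000862, SE 0.14).

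Map1a, which binds microtubules in mature axons and dendrites, ranged from 5.20 to 23.7 after noise (median 16.2) and from 13.2 to 35.9 after mock (median 25.2), with medians of 20.5 and 39.5 reads. Again all 12 noise regions lay below the mock median, and 4 were below every mock region. Its log2 fold change was -0.80 (limma adjusted p 0.00095, SE 0.16). Map1b, the related protein of growing and regenerating axons, had a log2 fold change of -0.61 (limma adjusted p 0.00285, SE 0.14). It ranged from 10.4 to 44.2 after noise and from 27.0 to 65.5 after mock, and 11 of 12 noise regions lay below the mock median.

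The other neurofilament subunits did not pass the test. Nefl, the light subunit, ranged from 18.7 to 52.0 after noise (median 38.6) and from 31.2 to 92.8 after mock (median 48.6), with a log2 fold change of -0.43 (limma adjusted p 0.0634, SE 0.13). Nefm, the medium subunit, had -0.42 (limma adjusted p 0.107, SE 0.14). Tubb3, neuronal beta tubulin, had -0.24 (limma adjusted p 0.616, SE 0.20). In each of these 3 genes the groups overlapped.

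Among 21 tested genes of the axonal transport motors, 19 lay below 0, the median was -0.23 and 1 fell. That was Klc2, a kinesin light chain that couples cargo to the motor. It ranged from 0.52 to 4.85 after noise (median 2.21) and from 1.56 to 9.36 after mock (median 4.42), or medians of 2.5 and 7 reads. The log2 fold change was -0.75 (limma adjusted p 0.0257, SE 0.20), with 11 of 12 noise regions below the mock median. Dynll2, a dynein light chain, stood at -0.68 (limma adjusted p 0.0582, SE 0.20), and the kinesin heavy chains Kif5c at -0.64 (limma adjusted p 0.0627, SE 0.19) and Kif1a at -0.54 (limma adjusted p 0.096, SE 0.18). None of the last 3 was called.

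The genes that set the firing of these neurons formed the next group. Of 20 tested voltage-gated channel and sodium pump genes 18 lay below 0, the median was -0.27 and 3 fell, among them Atp1b1. It encodes the beta 1 subunit that carries the sodium pump to the membrane. Its values ranged from 26.0 to 48.3 after noise (median 43.0) and from 42.1 to 69.6 after mock (median 54.6), with medians of 61 and 73.5 reads. The 12 noise regions were all under the mock median and 5 lay below every mock region. It had a log2 fold change of -0.46 (limma adjusted p 0.0257, SE 0.12). Kcnc1, the potassium channel Kv3.1 of fast-firing neurons, stood at -0.59 (limma adjusted p 0.0884, SE 0.19) and did not pass.

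Calcium handling was mixed. Of 22 tested genes 13 lay below 0 and 9 above, with a median of -0.02, and 2 fell. Leaving out single regions moved that median from -0.08 (without mock replicate 8) to 0.04 (without noise replicate 5). Atp2a2, the SERCA2 pump that fills the endoplasmic reticulum with calcium, ranged from 0.69 to 4.68 after noise (median 1.82) and from 2.60 to 9.80 after mock (median 4.03). These were low counts, with medians of 3 and 5 reads, yet 9 of 12 noise regions lay below every mock region. Its log2 fold change was -0.90 (limma adjusted p 0.00285, SE 0.20). Calm2, a calmodulin gene, ranged from 5.20 to 16.6 after noise (median 9.75) and from 10.4 to 24.9 after mock (median 17.8), and 7 noise regions lay below every mock region. Its log2 fold change was -0.77 (limma adjusted p 0.00469, SE 0.18). Calm3, which encodes the same protein, stood at -0.63 (limma adjusted p 0.0884, SE 0.20), and Ncs1, a neuronal calcium sensor, at -0.52 (limma adjusted p 0.17, SE 0.20). Neither passed.

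**Figure D2:**
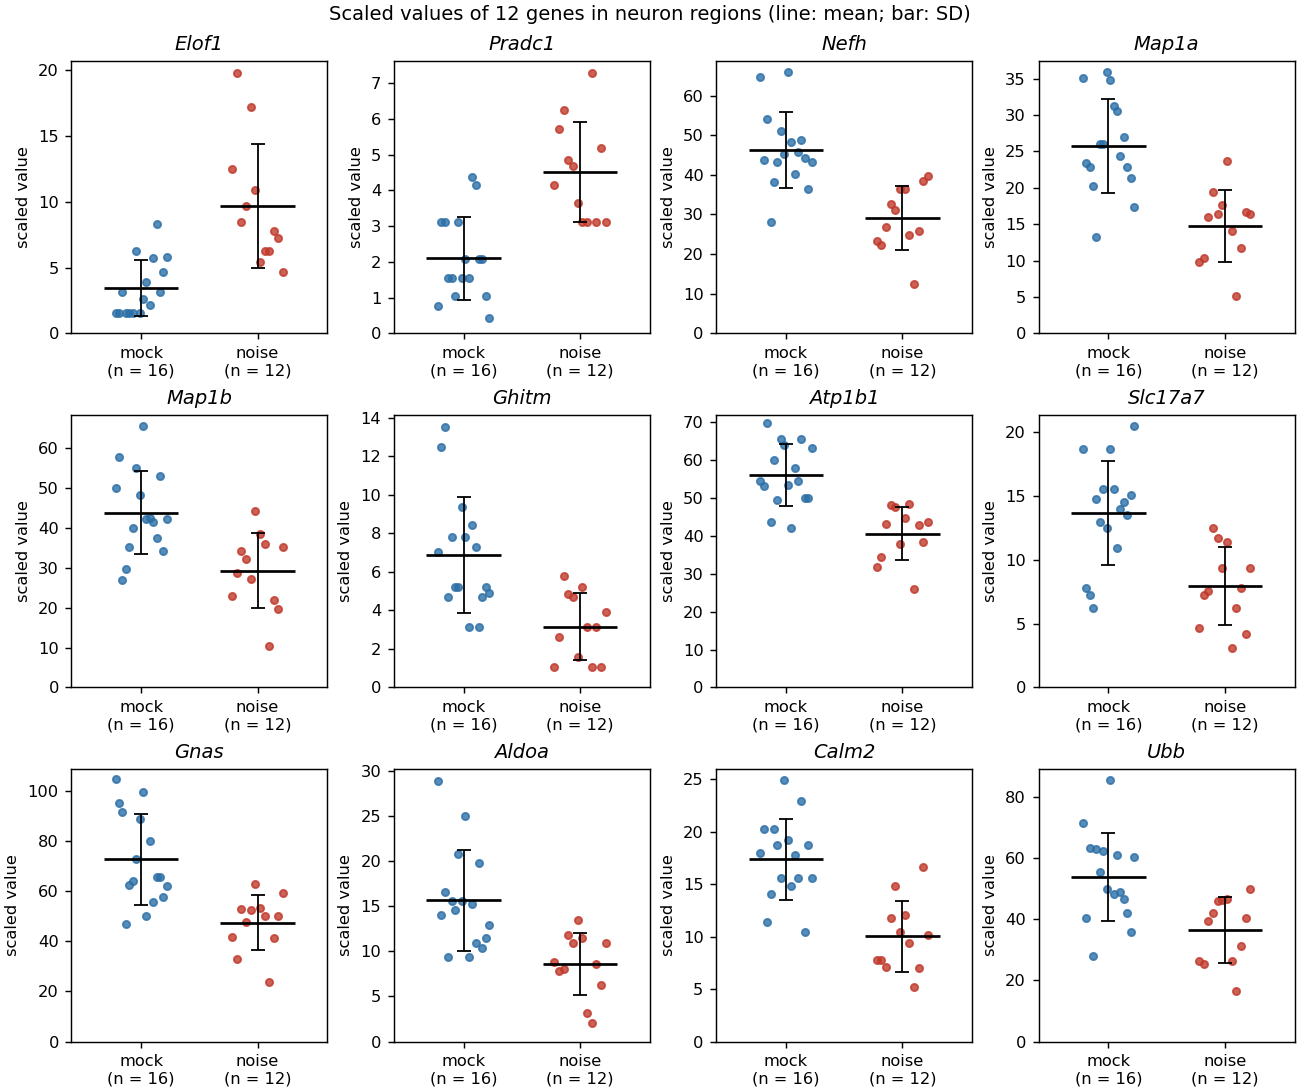
Scaled value of 12 genes in each neuron region, mock (16 points, blue) and noise (12 points, red), with the mean as a line and the SD as a bar, on linear axes from 0. Elof1 and Pradc1 are higher after noise and the other 10 genes lower, and the groups overlap in each panel.

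Transmitter release was represented by Slc17a7. It encodes VGLUT1, which loads glutamate into synaptic vesicles. It ranged from 3.12 to 12.5 after noise (median 7.68) and from 6.24 to 20.5 after mock (median 14.3), or medians of 13 and 22 reads. No noise region reached the mock median, and the log2 fold change was -0.74 (limma adjusted p 0.0143, SE 0.19). It was the called member both among 30 synaptic vesicle genes (24 below 0, median -0.18) and among 11 genes of spiral ganglion neuron identity (9 below 0, median -0.29). Snap25, a core protein of vesicle fusion, stood at -0.55 (limma adjusted p 0.0645, SE 0.17). Vamp1, its partner on the vesicle, stood at -0.66 (limma adjusted p 0.0656, SE 0.20) and Syp, a vesicle membrane protein, at -0.64 (limma adjusted p 0.0737, SE 0.20).

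Subtype markers of the neurons did not pass. Calb2, calretinin, which marks a subset of these neurons, ranged from 6.76 to 24.9 after noise and from 9.36 to 49.9 after mock, with a log2 fold change of -0.29 (limma adjusted p 0.416, SE 0.17). Lypd1, a marker of another subset, stood at -0.35 (limma adjusted p 0.28, SE 0.16) and Isl1, a transcription factor of sensory neurons, at -0.57 (limma adjusted p 0.107, SE 0.19). Of the glutamate receptors 3 were tested, and the one with the smallest p, the NMDA receptor subunit gene Grin1, stood at -0.31 (limma adjusted p 0.477, SE 0.20). Of 11 neurotrophin and survival signalling genes 7 lay below 0 and 0 passed, with a median of -0.23 that was -0.15 without mock replicate 1.

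Of 24 tested glycolysis and lactate genes 17 lay below 0, the median was -0.19 and 2 fell. Aldoa, the aldolase that splits fructose bisphosphate, ranged from 2.08 to 13.5 after noise (median 8.71) and from 9.36 to 28.9 after mock (median 14.9), and 7 of 12 noise regions lay below every mock region. Its log2 fold change was -0.85 (limma adjusted p 0.00273, SE 0.18). Pkm, the pyruvate kinase of the last glycolytic step, ranged from 3.12 to 8.94 after noise (median 5.20) and from 4.68 to 22.6 after mock (median 10.5), with a log2 fold change of -0.84 (limma adjusted p 0.00406, SE 0.19). In reads its medians were 7 and 17.5. Ldhb, a lactate dehydrogenase subunit, stood at -0.56 (limma adjusted p 0.107, SE 0.19).

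Of 74 respiratory chain and ATP synthase genes 57 lay below 0, with a median of -0.13 that was -0.19 without noise replicate 13, and 2 fell. Ndufa13, a subunit of complex I, had a log2 fold change of -0.71 (limma adjusted p 0.044, SE 0.20) from medians of 2.5 reads after noise and 5 after mock. Cox8a, a subunit of complex IV, ranged from 3.12 to 11.1 after noise and from 4.68 to 16.6 after mock, with a log2 fold change of -0.67 (limma adjusted p 0.0491, SE 0.19). The mitochondrial ribosome, with 18 of 30 genes below 0, had a median of -0.02 and no call, and that median lay between -0.07 (without noise replicate 12) and 0.02 (without noise replicate 2). Of the cytosolic ribosomal proteins 60 of 77 lay below 0, with a median of -0.15, and 1 (1.3%) fell, against 0.64% of all genes. That gene was Rps25, with a log2 fold change of -0.72 (limma adjusted p 0.0341, SE 0.20). Without noise replicate 10 that median was -0.05.

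Ghitm had the largest fall of all on the log2(value + 1) scale. It encodes a protein of the inner mitochondrial membrane related to the BAX inhibitor family, and it was the called gene among 8 tested apoptosis genes, of which 4 lay above 0 and 4, Ghitm included, below. Its values ranged from 1.04 to 5.79 after noise (median 3.12) and from 3.12 to 13.5 after mock (median 6.11), with medians of 4.5 and 9.5 reads. Every noise region lay below the mock median and 5 below every mock region. The log2 fold change was -0.95 (limma adjusted p 0.00137, SE 0.20).

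Several other falls were in genes of membranes, organelles and traffic. Gdap1, a mitochondrial outer membrane protein mutated in an inherited neuropathy, had a log2 fold change of -0.89 (limma adjusted p 0.00285, SE 0.20) at medians of 2 and 7 reads. Clip3, a linker protein of microtubules and membranes, had -0.88 (limma adjusted p 0.00285, SE 0.19) at 8.5 and 13.5 reads. Aldh1a3, which makes retinoic acid, had -0.88 (limma adjusted p 0.0037, SE 0.20). For Gdap1 and Aldh1a3 all 12 noise regions lay below the mock median, and for Clip3 11 did.

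Iqsec3, an activator of Arf GTPases at synapses, had a log2 fold change of -0.84 (limma adjusted p 0.00581, SE 0.20). Entpd4, a nucleotidase of the Golgi and lysosome, had -0.81 (limma adjusted p 0.00925, SE 0.20). All 12 noise regions lay below the mock median for both genes. Gnas, the stimulatory G protein alpha subunit, is named after its values were seen, because its adjusted p was the lowest among the falls. It ranged from 23.9 to 62.9 after noise (median 49.9) and from 46.8 to 104 after mock (median 65.5). Its log2 fold change was -0.61 (limma adjusted p 0.000224, SE 0.11). Further falls, Alg2, Naa15 and Tlcd3b, are also named after their values were seen, with log2 fold changes of -0.71, -0.69 and -0.67.

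Glia genes in these regions moved as follows. Of 9 tested glia genes 8 lay below 0, the median was -0.31 and 1 (11.1%) fell, against 0.64% over all genes. The one that fell is not among the genes named here. Pmp22, a protein of compact peripheral myelin, stood at -0.61 (limma adjusted p 0.0942, SE 0.20), and Cnp, a myelin-associated enzyme, at -0.36 (limma adjusted p 0.377, SE 0.20). Ncmap, a protein of noncompact myelin, stood at 0.37 (limma adjusted p 0.331, SE 0.19). Gpm6b, a proteolipid membrane glycoprotein, was not in the glia list. It fell, with a log2 fold change of -0.80 (limma adjusted p 0.00925, SE 0.20) at medians of 2 and 4 reads. Spp1, osteopontin, which stood in the bone list, had 1.56 as the log2 difference of neuron minus supporting-cell regions under mock exposure. It ranged from 8.32 to 28.1 after noise and from 18.7 to 42.1 after mock, with a log2 fold change of -0.55 (limma adjusted p 0.0436, SE 0.15).

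Heat-shock genes were examined because the series addresses their pathway. Of 56 heat-shock and chaperone genes 34 were listed and 32 tested, of which 27 lay below 0 and 5 above. The median was -0.19, and 1 gene fell, none rose. Ubb, a stress-responsive polyubiquitin gene, ranged from 16.6 to 49.9 after noise (median 40.1) and from 28.1 to 85.8 after mock (median 52.8), with medians of 55 and 75 reads. All noise regions lay below the mock median, and the log2 fold change was -0.57 (limma adjusted p 0.00285, SE 0.13).

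The other chaperones named here did not pass. Hsp90aa1, the inducible cytosolic HSP90, ranged from 6.24 to 20.3 after noise (median 15.4) and from 10.9 to 30.1 after mock (median 18.4), with a log2 fold change of -0.39 (limma adjusted p 0.241, SE 0.17). Hsp90ab1, its constitutive form, stood at -0.49 (limma adjusted p 0.175, SE 0.19), Hspd1, the mitochondrial HSP60, at -0.52 (limma adjusted p 0.141, SE 0.19), and Hsph1, an HSP110 that assists HSP70, at -0.46 (limma adjusted p 0.235, SE 0.20). Hsf1, the factor that switches on heat-shock genes, was below the filter on low values, with medians of 2 reads after noise and 1.5 after mock. Of 13 chaperonin and prefoldin genes, which fold actin and tubulin, 10 lay below 0, with a median of -0.30 and no call.

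Bag4, a co-chaperone of HSP70, had a log2 fold change of 0.50 (limma adjusted p 0.17, SE 0.19) that rested on a single region. Noise replicate 9 held 79 reads, a value of 123, while the other noise regions had 1 to 8 reads. The median was 1.35 after noise and 1.56 after mock.

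Other stress lists held few tested members and no call. Of 16 genes of endoplasmic reticulum and integrated stress 8 lay above 0 and 8 below (median 0.01), with Ddit3, the stress factor CHOP, at 0.41 (limma adjusted p 0.274, SE 0.19) and Canx, a chaperone of glycoproteins, at -0.62 (limma adjusted p 0.093, SE 0.20). Of 5 immediate-early genes 3 lay above 0 (median 0.08). Jun, an early response factor, ranged from 0.52 to 5.46 after noise and from 0.52 to 4.68 after mock, with a log2 fold change of 0.17 (limma adjusted p 0.721, SE 0.19). The medians were -0.10 for 19 genes of oxidative stress, 0.03 for 5 of inflammation and 0.09 for 5 of axon injury. These small medians depended on single regions. They lay between -0.03 (without noise replicate 10) and 0.06 (without noise replicate 1) for endoplasmic reticulum stress, and between -0.03 (without noise replicate 2) and 0.12 (without noise replicate 4) for immediate-early genes. They reached -0.18 (without noise replicate 11) for oxidative stress, ran from -0.03 (without noise replicate 3) to 0.12 (without mock replicate 8) for inflammation, and from 0.04 (without mock replicate 15) to 0.17 (without noise replicate 1) for axon injury. Proteasome genes lay above 0 in 25 of 40 cases, with a median of 0.10 that was 0.06 without noise replicate 9. Psmd13, a subunit of its regulatory particle, stood at 0.61 (limma adjusted p 0.093, SE 0.20).

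**Figure D3:**
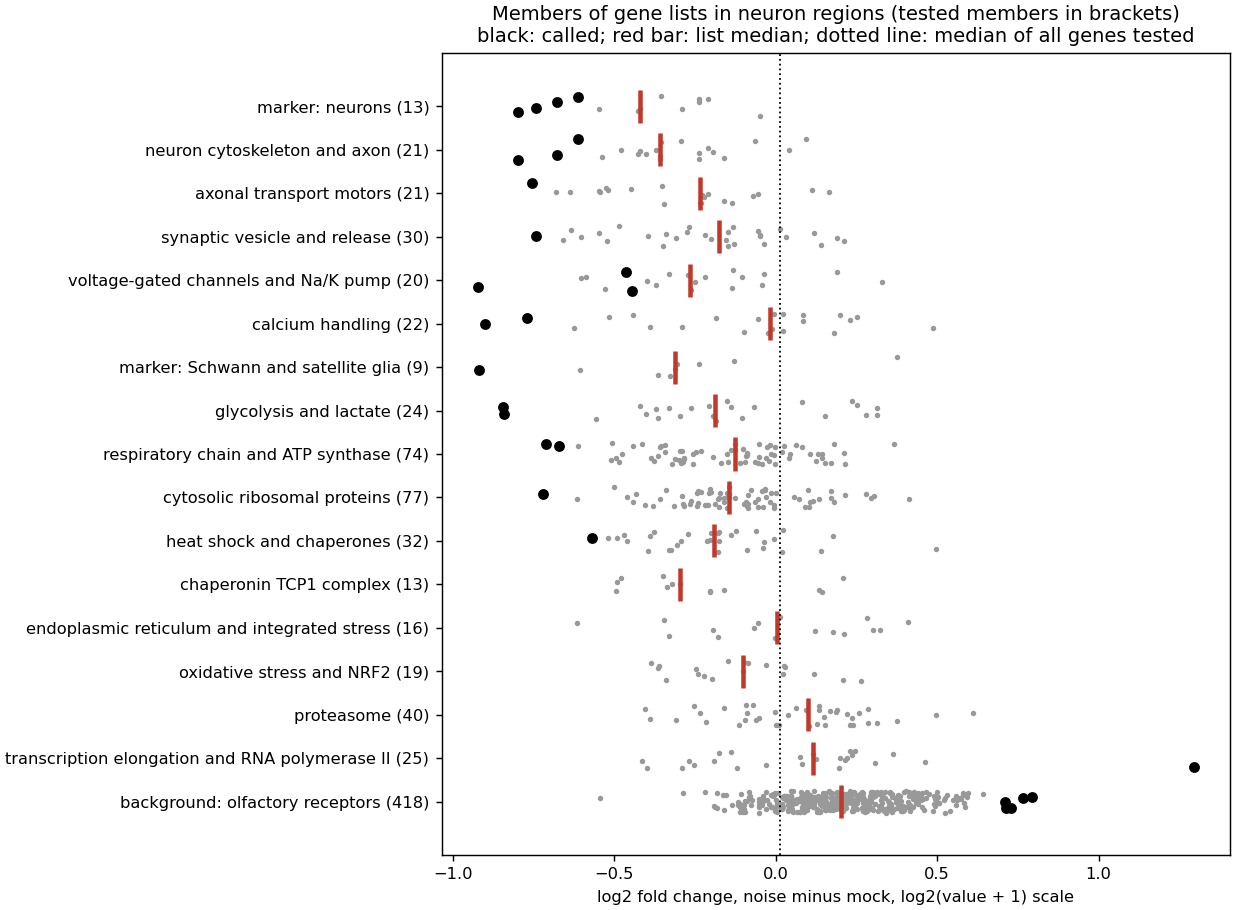
Log2 fold change (noise minus mock) of each tested member of 17 gene lists, 1 point a gene. Black points are called genes, the red bar is the list's median and the dotted line the median of all 4686 genes tested. Medians lie farthest below 0 for neuron markers (-0.42) and the axonal cytoskeleton (-0.36), and above 0 for olfactory receptors (0.20). The lists of neuron markers and axonal cytoskeleton share members, among them Nefh, Map1a and Map1b.

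Elof1 was the largest change and had the lowest adjusted p. It encodes a small elongation factor that travels with RNA polymerase II and takes part in repair of transcribed DNA. Its values ranged from 4.68 to 19.8 after noise (median 8.13) and from 1.56 to 8.32 after mock (median 2.86), or 4 to 38 reads (median 20) against 1 to 13 (median 5). All 12 noise regions lay above the mock median and 6 above every mock region. The log2 fold change was 1.29 (limma adjusted p 5.28e-07, SE 0.20). A two-sided permutation test on the mean log2 values of the groups, with 100000 resamples, gave p = 4e-05, which is not adjusted for the choice of Elof1, on the same values, as the gene with the lowest p of 4686. Of 25 tested genes of transcription elongation and RNA polymerase II 15 lay above 0 (median 0.11, and 0.07 without mock replicate 9), and Elof1 was the 1 called. Polr2g, a polymerase subunit, stood at 0.46 (limma adjusted p 0.235, SE 0.20).

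The other 13 rises were in genes with a median of 1 to 5 reads in mock regions. Pradc1, a secreted protein with a protease-associated domain, ranged from 3.12 to 7.28 after noise (median 4.42) and from 0.45 to 4.37 after mock (median 1.82), with medians of 7 and 2 reads. All 12 noise regions lay above the mock median and 6 above every mock region. Its log2 fold change was 0.88 (limma adjusted p 0.00285, SE 0.20). Shisal1 had 0.79 (limma adjusted p 0.0143, SE 0.20) at medians of 8 and 2.5 reads, and Prph2, a structural protein of photoreceptor discs, 0.72 (limma adjusted p 0.044, SE 0.20) at 10 and 5 reads. Rrh, an opsin of the retinal pigment epithelium, rose by 0.75 and Rev1, a translesion DNA polymerase, also by 0.75 (limma adjusted p 0.0211 and 0.0143). Sike1, a brake on interferon signalling, rose by 0.68, Olfm3, an olfactomedin, by 0.67, and Pth, parathyroid hormone, by 0.66 (limma adjusted p 0.0473, 0.0498 and 0.0498). Each of these 3 was called in 11 of the 28 fits that left out 1 region, and in 6 of the other settings tried (of 16 for Pth and 17 for Sike1 and Olfm3).

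Olfactory receptor genes supplied the other 5 rises, 1.2% of the 418 tested, against 0.299% called higher over all genes. These receptors serve the nose and are not expected to mark spiral ganglion neurons, so their values serve as a measure of signal near the floor. The largest rise was that of Olfr461, from 0.45 to 4.16 after mock (median 1.82) to 3.12 to 6.24 after noise (median 4.05), a log2 fold change of 0.79 (limma adjusted p 0.0119, SE 0.20). Of 418 tested receptor genes 365 lay above 0 and 53 below, with a median of 0.20 against 0.01 over all genes. Their mean log2(value + 1) ranged from 1.28 to 1.65 over mock regions and from 1.52 to 1.88 over noise regions. The negative probe averaged 1.09 ± 0.314 (SD, n = 16) after mock and 1.12 ± 0.235 (SD, n = 12) after noise.

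**Figure D4:**
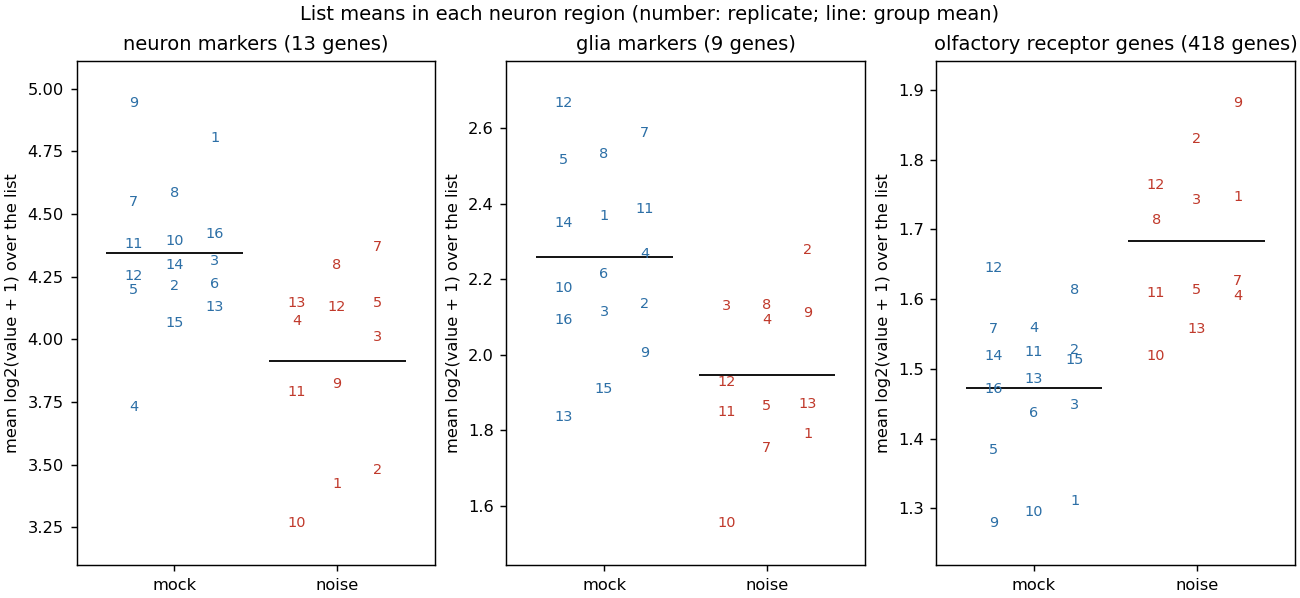
Mean log2(value + 1) of 13 neuron markers, 9 glia markers and 418 olfactory receptor genes in each neuron region. Each number is a replicate, blue for mock and red for noise, and the line is the group mean. Neuron and glia means are lower after noise and receptor means higher, with overlap in all 3 panels.

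The receptor mean moved with the treatment, so the fit was repeated with it as a covariate. Then 2 genes (0.0427%) were called. Elof1 was one of them, with a log2 fold change of 1.15 (limma adjusted p 0.0264). Its SE was 0.26 with the covariate and 0.20 without. With rescaling to the total as well, Elof1 was not called (limma adjusted p 0.0716). The receptor mean differed between the groups, and the number of calls depends on SEs as well as on fold changes. With the covariate alone all 44 genes kept their direction. The 30 falls had a median of -0.65 and lay between -1.30 and -0.22, and the 14 rises a median of 0.54 and lay between 0.31 and 1.15. The nearest to the threshold among those no longer called were Clip3 (limma adjusted p 0.0541), Ghitm and Atp2a2 (both 0.0563). Klc2 and Slc17a7 moved most among the falls named here, to -0.22 and -0.28. List medians with the covariate were -0.25 for neuron markers, -0.26 for the axonal cytoskeleton, -0.43 for glia, -0.14 for heat-shock genes and 0.04 for the receptors. Among the functional lists, medians turned sign for the proteasome (0.10 to -0.05), axon injury (0.09 to -0.17) and inflammation (0.03 to -0.08). They also did for immediate-early genes (0.08 to -0.02), endoplasmic reticulum stress (0.01 to -0.04) and apoptosis (-0.03 to 0.12). Among the marker lists, those of lateral wall fibrocytes (0.02 to -0.15, 3 genes) and hair cells (0.04 to -0.31, 2 genes) turned. The part of the receptor signal in the other differences was not tested beyond this fit.

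**Figure D5:**
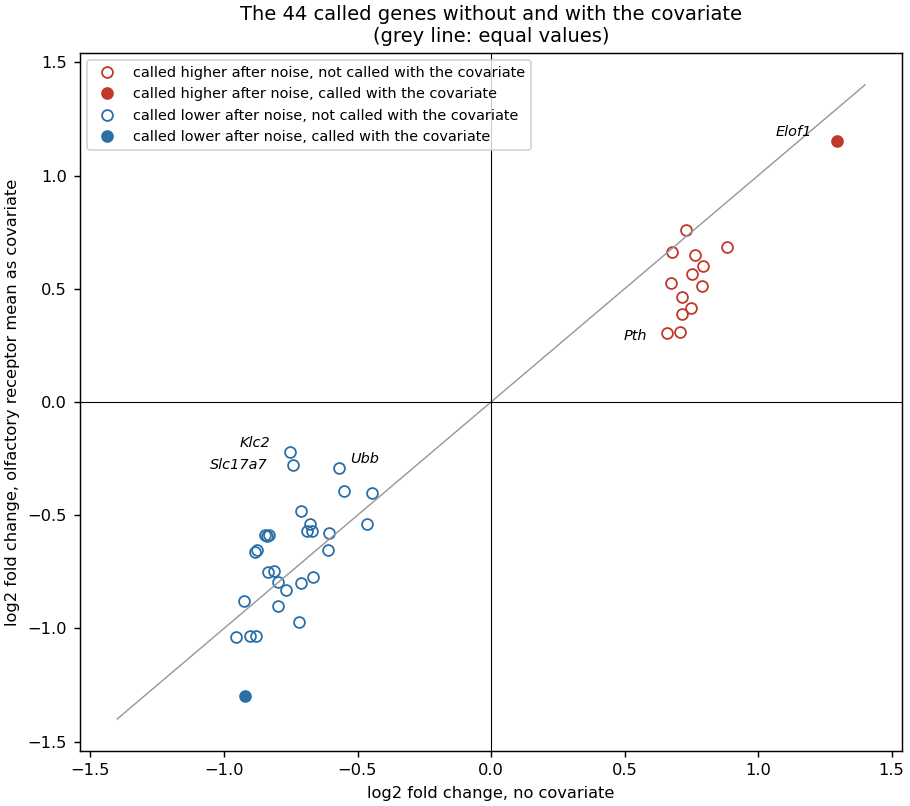
Log2 fold change of the 44 called genes without a covariate (horizontal) and with the olfactory receptor mean as covariate (vertical). Filled points were called in both fits, among them Elof1. Open points lie on the same side of 0 in both fits, and several falls lie closer to 0 with the covariate, Klc2 nearest.

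Promoter sequence was described for the called genes because the series concerns heat shock. Promoters are from RefSeq on GRCm38.p6, 250 bases before to 50 after the start, and matched 5000 of 6248 listed genes, 12 of the 14 that rose and 18 of the 30 that fell. The heat-shock element in its form of 3 units was searched on both strands and stood in 0.62% of all promoters and in 0 of the called genes. The form of 2 units GAANNTTC, which is contained in the longer one, stood in 7.58% of all promoters, in 2 of 12 rises and in 0 of 18 falls. The palindrome TTCNNGAA stood in 8.98%, in 1 rise and 1 fall. The AP-1 motif was searched loosely as TGANTCA, with any base in the middle, which was A in Ubb. This pattern stood in 7.44% of all promoters, in 1 rise and in 3 of 18 falls. The cAMP response element TGACGTCA stood in 3.22%, in 0 rises and 1 fall. The windows below hold 30 bases each around the match, in capitals, 5′ to 3′ on the gene's strand. They are shown as the rises with the first heat-shock form and the falls with the AP-1 motif, and a match is a description of these letters only.
Pradc1, chr6:85452009-85452038, minus strand: agaaatgcccaGAAGCTTCtggcgagacgt
Olfm3, chr3:114903906-114903935, plus strand: tgtcaatgacaGAAGGTTCcagtgcagtgc
Aldoa, chr7:126799454-126799483, minus strand: cacattccggcTGAGTCAcgatgttcgcgc
Ndufa13, chr8:69902025-69902054, minus strand: cttaggctttgTGACTCAatcgcccttaat
Ubb, chr11:62551603-62551632, plus strand: tctacggcgttTGAATCAtgggaggattta

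These matches lay 57 bases upstream of the start in Pradc1, 161 in Olfm3, 218 in Aldoa, 23 in Ndufa13 and 117 in Ubb. The share of promoters with each motif among the rises and falls comes from few genes, and no test was made of it.

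Whether the noise effect in neuron regions differed from that in supporting-cell regions was tested as a difference of effects over the 50 usable regions. Of the 22 supporting-cell regions 21 lay in the captured area of a neuron region, and the fit treated them as independent. No gene passed (limma, lowest adjusted p 0.588, Elof1), with 263 genes at an unadjusted p below 0.05. By edgeR 0 genes passed as well, with 185 at an unadjusted p below 0.05, and with captured area as a random block 0 passed, with 287. In supporting-cell regions 17 of 4686 genes (0.363%) were called, and Elof1 was called there in the same direction as in neurons, with a log2 change of 2.49 (adjusted p 5.56e-18). Of the falls in neuron regions 24 of 30, and of the rises 9 of 14, had the same sign in supporting-cell regions, as did 2520 of 4231 genes that were not called. No called gene was shown by this test to be particular to neuron regions.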

How the data were processed

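GeoMx probe signal was read for 28 neuron regions (12 noise, 16 mock) and, for 1 contrast, 22 supporting-cell regions. The deposited signal of 6248 genes and 1 negative probe had been scaled by the authors to a common upper quartile in each region, 3.12. The submitters' processing notes name DRAGEN, mm10 and GRCm38; the gene filter and the treatment of counts of 0 are not given in the sources used here. Values divided by the region's lowest value gave whole reads for 99.9891% of values (within 0.01); 1 gene was left out of count tests.

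Genes whose mean over the neuron regions reached the 0.25 quantile (1.73) were tested, 4686 in all, with limma 3.58.1 in R 4.3.3 (lmFit, eBayes with trend) on log2(value + 1), with Benjamini-Hochberg adjustment over all genes tested and an adjusted p of 0.05. Alternatives included edgeR 4.0.16 and DESeq2 1.42.0 on recovered reads, other pseudocounts, filters, scalings and covariates. Scripts were tested on simulated data. Genes named are all called rises, the 15 largest falls, up to 4 members of each list with the smallest p and 11 fixed genes. Results of a few genes under this rule are left out of the text. Members and lists were chosen with earlier results of these data known. Precision is limited by reads per region, and recovered reads may hold duplicates. Symbols matched the RefSeq table of GRCm38.p6 in 6233 cases, a synonym in 4 and neither in 11.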

Additional observations from a re-analysis of the deposited data

How the results depend on the processing

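Against 44 genes (14 higher, 30 lower), the count was 71 with a filter at the 0.5 quantile, 119 in edgeR on recovered reads (27 higher, 92 lower), 118 in DESeq2 on the same reads (12 higher, 106 lower), 67 after rescaling to the total (31 higher, 36 lower), 93 with log2 reads as a covariate, 2 with the receptor mean as covariate, and 3 with that covariate and rescaling together. Of the 30 falls 30 were also called by edgeR and 24 by DESeq2, and of the 14 rises 10 and 3. Leaving out each region in turn gave 29 to 92 genes. The cause of these shifts was not tested. With the replicate number as a block the count was 30 (7 higher, 23 lower), and 27 of these were among the 44. The numbers come from titles and do not pair the regions, since same-numbered regions correlated at -0.10 to 0.02 over 12 pairs and 0 noise regions correlated best with their own number. With the number of read files as a block the count was 37, and in regions with 3 or more reads at the upper quartile it was 64, both chosen after seeing the data, as was the setting with covariate and rescaling together. Ubb had a log2 fold change of 0.0585 (adjusted p 0.973) with covariate and rescaling together, the 1 of 40 called genes followed through these settings whose direction turned. Elof1 was not called with covariate and rescaling together (limma adjusted p 0.0716). The difference of effects between region types gave 1 gene, Elof1 (adjusted p 0.0382), with a pseudocount of 10, and 0 genes in the 6 other settings run for it, all chosen after seeing the data.

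Low depth limits genes of few reads in both directions. Among them are the rises (mock medians of 1 to 5 reads, 5 for Elof1) and falls such as Gpm6b (medians of 2 and 4 reads). Listing is uneven by initial: 14.2% of protein-coding symbols starting with A to K were listed and 40.8% of those with L to Z, and 13 of the 14 rises and 12 of the 30 falls lie from L to Z, as do 3578 of the genes tested, against 1093 from A to K.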
